A study of Mus musculus with 18 samples.

Results

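The genes described here are 47 interferon-stimulated and antigen-processing genes, taken from a list of names and not by their values, of the 15582 genes with at least 1 count in RNA-seq of invariant natural killer T (iNKT) cells from the mouse thymus. All 47 were in the count table, and 46 passed the filter on low counts and were tested, so that the exception, Oasl2, has levels only. The cells were sorted as CD1d tetramer-positive NKT1 (ICOSlo, CD49a+), NKT2 (CD49a-, Sdc-1-, ICOShi, CD4hi, TCRβhi) and NKT17 cells (CD49a-, ICOShi, Sdc-1+), and compared between WT and SKG mice of the BALB/c background, with 3 libraries in each of the 6 groups. SKG mice carry a spontaneous point mutation of Zap70, whose kinase passes on signals of the T cell receptor (TCR), and the mutant protein does so weakly. WT and SKG mice were F3 animals descended from one cross of BALB/cJ with SKG, and the 2 genotypes were bred apart after the F2, so genotype and breeding line cannot be told apart. No treatment was given, and age, sex and any pooling of animals are not given in the labels. The labels do not say that libraries of a group came from separate animals, so p-values measure the spread between these libraries only.

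As background, type I interferons signal through Ifnar1 and Ifnar2, the kinases Jak1 and Tyk2, and a complex with Irf9 that binds interferon-stimulated response elements (ISRE). Interferon-γ signals through Ifngr1 and Ifngr2 to gamma-activated sites (GAS) and induces Irf1, guanylate-binding proteins, immunity-related GTPases, the immunoproteasome and the peptide transporter. The induced genes bind or degrade foreign RNA, block membrane fusion or budding, or prepare peptides for MHC class I. In the thymus such genes are on at a low tone without infection, and NKT1 cells are known as a source of interferon-γ.

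Each library held 4391029 to 8895917 counts, and levels are given as CPM, counts scaled to the size of the library, after TMM scaling (a trimmed-mean correction for composition). Summed marker genes set NKT1 and NKT17 libraries far apart from the others, and NKT2 libraries less so. The sum of 6 NKT1 markers was 3818 to 5106 CPM in NKT1 and at most 406 CPM in other libraries. The sum of 6 NKT17 markers was 2382 to 2483 CPM in NKT17 and at most 14.3 CPM elsewhere. The sum of 6 NKT2 markers was 1667 to 3219 CPM in NKT2 and at most 1542 CPM elsewhere. In SKG, mean Gata3 was 173 CPM in NKT2, 230 CPM in NKT1 and 244 CPM in NKT17. Mean Icos in SKG was 735 CPM in NKT2 and 972 CPM in NKT17. The other NKT2 markers, Zbtb16, Il4, Ccr7 and Folr4, had their highest SKG means in NKT2. Icos, Itga1 (CD49a) and Sdc1 also served in the sort. The Zap70 point mutation cannot be checked by counts per gene. A gene was called when its Benjamini-Hochberg adjusted p in edgeR was under 0.1 over the 11118 genes tested and it differed at least 1.5-fold.

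RefSeq promoter windows on GRCm38.p6 (300 bases, from 250 before to 50 after an annotated start) matched 32 of the 47 members. Windows of 6 members are printed, those with the largest called log2 differences among members that had a window. The calls ranked were those between SKG and WT and those of a genotype difference that differed between subsets. Ly6a, Ifi27l2a, Usp18, Gbp6, Mx2 and Dhx58 were called with larger differences than Gbp3, the last one printed, but had no window. Ifi44, with a log2 fold change of -1.70 in NKT17 that was not called, is not printed. Both strands were searched for an ISRE core, spelled here as 2 copies of GAAA parted by any 2 bases (2 copies of TTTC on the opposite strand), and for the GAS core TTCNNNGAA, which reads the same on both strands. An ISRE core stood in 17 of the 32 promoters (53.1%), against 3.73% of 8943 tested genes with a window, and a GAS core in 11 (34.4%), against 8.38%. One or the other stood in 21 of 32 (65.6%), against 11.5%. Among the 15 members with a window that were called lower in SKG in any subset, 9 (60%) had an ISRE core and 3 (20%) a GAS core, and among the 16 tested members with a window that were not, 8 (50%) had an ISRE core and 8 (50%) a GAS core. Bases that match a core are in capitals, and all windows read 5′ to 3′ along the gene, the first listed window being shown for Ifit2 and Gbp3, which have 2.

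Ifit2, chr19:34550444-34550743, plus strand: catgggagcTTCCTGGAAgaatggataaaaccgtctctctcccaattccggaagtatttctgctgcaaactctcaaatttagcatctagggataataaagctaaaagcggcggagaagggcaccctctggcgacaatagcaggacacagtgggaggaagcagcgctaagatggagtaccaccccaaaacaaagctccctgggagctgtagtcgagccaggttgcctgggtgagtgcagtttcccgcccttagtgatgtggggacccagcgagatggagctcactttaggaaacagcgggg

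Ifit3, chr19:34583279-34583578, plus strand: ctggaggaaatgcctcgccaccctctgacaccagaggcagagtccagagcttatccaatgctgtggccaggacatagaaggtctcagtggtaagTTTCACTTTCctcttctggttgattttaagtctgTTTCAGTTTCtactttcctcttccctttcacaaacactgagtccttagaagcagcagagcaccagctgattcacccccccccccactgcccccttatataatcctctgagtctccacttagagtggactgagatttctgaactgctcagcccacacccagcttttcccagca

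Oasl1, chr5:114922990-114923289, plus strand: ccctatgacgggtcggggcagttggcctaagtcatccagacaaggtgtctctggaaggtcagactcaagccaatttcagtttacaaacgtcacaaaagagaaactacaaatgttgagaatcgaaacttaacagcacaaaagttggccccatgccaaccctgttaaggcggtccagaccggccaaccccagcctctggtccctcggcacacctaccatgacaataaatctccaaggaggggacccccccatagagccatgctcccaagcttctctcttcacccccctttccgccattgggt

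Oas3, chr5:120777610-120777909, minus strand: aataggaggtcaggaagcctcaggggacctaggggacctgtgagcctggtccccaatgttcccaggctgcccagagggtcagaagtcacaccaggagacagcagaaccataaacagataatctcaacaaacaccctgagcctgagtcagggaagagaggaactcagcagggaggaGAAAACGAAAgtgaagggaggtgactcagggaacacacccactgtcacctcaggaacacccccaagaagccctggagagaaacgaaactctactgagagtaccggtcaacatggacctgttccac

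Oas1a, chr5:120907476-120907775, minus strand: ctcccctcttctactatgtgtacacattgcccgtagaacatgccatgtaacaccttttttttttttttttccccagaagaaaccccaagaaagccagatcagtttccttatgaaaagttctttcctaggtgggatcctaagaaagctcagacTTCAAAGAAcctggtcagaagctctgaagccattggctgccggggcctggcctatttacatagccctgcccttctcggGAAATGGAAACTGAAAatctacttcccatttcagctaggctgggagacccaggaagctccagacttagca

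Gbp3, chr3:142559794-142560093, plus strand: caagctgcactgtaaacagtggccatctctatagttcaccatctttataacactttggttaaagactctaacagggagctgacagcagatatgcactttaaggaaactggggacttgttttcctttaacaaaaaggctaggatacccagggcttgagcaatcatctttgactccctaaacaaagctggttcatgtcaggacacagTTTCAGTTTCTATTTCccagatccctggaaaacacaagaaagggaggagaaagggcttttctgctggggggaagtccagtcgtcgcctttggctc

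The Ifit3 window held ISRE cores that began 156 and 122 bases before the start, that of Oas3 held 1 at 75 bases, that of Gbp3 held 2 that overlap at 45 and 39 bases, and that of Oas1a held 2 that overlap at 20 and 14 bases beside a GAS core at 98 bases. The shown Ifit2 window held a GAS core 241 bases before the start and no ISRE core, and neither was found in the Oasl1 window.

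The members were together lower in SKG than in WT in each subset. Summed over the 47 members, the level was 7192, 7425 and 7811 CPM in WT NKT1 against 5730.1, 5750.4 and 5737 CPM in SKG NKT1. It was 7303, 7946 and 7614 CPM in WT NKT2 against 6034, 6107 and 6056 CPM in SKG NKT2, and 6175, 6522 and 5213 CPM in WT NKT17 against 4484, 4202 and 4366 CPM in SKG NKT17. No SKG library reached the level of a WT library of its subset, and WT NKT17 replicate 3 was the lowest WT library. The means were 7476 ± 313 and 5739 ± 10.4 CPM in NKT1, 7621 ± 321 and 6066 ± 37.7 CPM in NKT2, and 5970 ± 678 and 4351 ± 141 CPM in NKT17 (WT and SKG, SD, n = 3), which is 23.2%, 20.4% and 27.1% lower in SKG. Ly6e, Psmb8, Gbp4, Irf1 and Tap2 had the largest mean levels, and without these 5 the sums were 32.9%, 19.2% and 29.5% lower. In bulk samples, fewer cells that use a gene and less of its RNA per cell cannot be told apart.

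**Figure D1:**
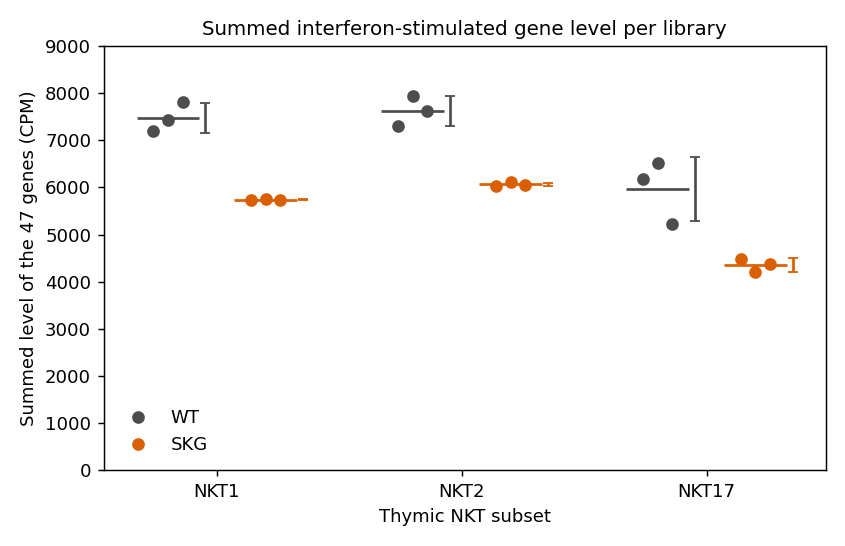
Summed level of the 47 members in CPM (y axis, from 0) for each of the 6 groups (x axis). Points are libraries, lines are means and bars are SD of 3 libraries. In each subset the 3 SKG libraries sit below the 3 WT libraries, for example 5730.1 to 5750.4 against 7192 to 7811 CPM in NKT1.

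Gene by gene, 13 of the 46 tested members were called lower in SKG in NKT1 (28.3%, against 1.82% of all genes tested), 5 in NKT2 (10.9%, against 4.05%) and 14 in NKT17 (30.4%, against 4.54%). None was called higher in edgeR in any subset, apart from Oas2 in NKT1 when a token that recurs in the library titles entered as a block. Deviations of same-token libraries from their group means correlated above 0.1 in 0 of 18 pairs across genotypes, so that block is not a pairing of WT with SKG. Of all genes tested, 1.46%, 3.90% and 3.83% were called higher in NKT1, NKT2 and NKT17. At an unadjusted p under 0.05, 1, 2 and 0 members were higher and 25, 13 and 27 lower, and DESeq2 called 0 higher in each subset and 13, 7 and 17 lower. The log2 fold change was below 0 for 43, 35 and 45 of 46 members, with medians of -0.42, -0.25 and -0.56, against -0.0067, -0.0036 and 0.0045 over all genes tested. All 3 SKG libraries lay below all 3 WT libraries for 24 members in NKT1 (8.68% of all genes tested), 19 in NKT2 (16.2%) and 22 in NKT17 (13.9%). In all, 23 members were called lower in at least 1 subset. NKT1 and NKT17 had 8 called members in common (61.5% of 13 and 57.1% of 14), namely Ifit3, Usp18, Ifi27l2a, Gbp2, Gbp3, Gbp6, Igtp and Xaf1. Over all genes tested, 65 of those called lower were common to NKT1 and NKT17 (32.2% of the 202 in NKT1 and 12.9% of those in NKT17). These comparisons share no library, but deviations of NKT1 and NKT17 libraries with the same title token and genotype correlated above 0.1 in 2 of 3 pairs in WT and 2 of 3 in SKG. NKT2 shared Oas1a with NKT17 (20% of 5 and 7.14% of 14), where 183 of all genes were common (40.7% of the 450 in NKT2 and 36.2% of those in NKT17). NKT2 shared no called member with NKT1, where 58 of all genes were common (28.7% of the 202 and 12.9% of the 450). With no fold minimum, Gbp2, Irgm1 and Tap1 were lower in both NKT1 and NKT2. The NKT17 count rested in part on single libraries, being 6 without WT NKT17 replicate 2 and 9 without SKG NKT17 replicate 3, and the NKT2 count was 3 without WT NKT2 replicate 2.

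**Figure D2:**
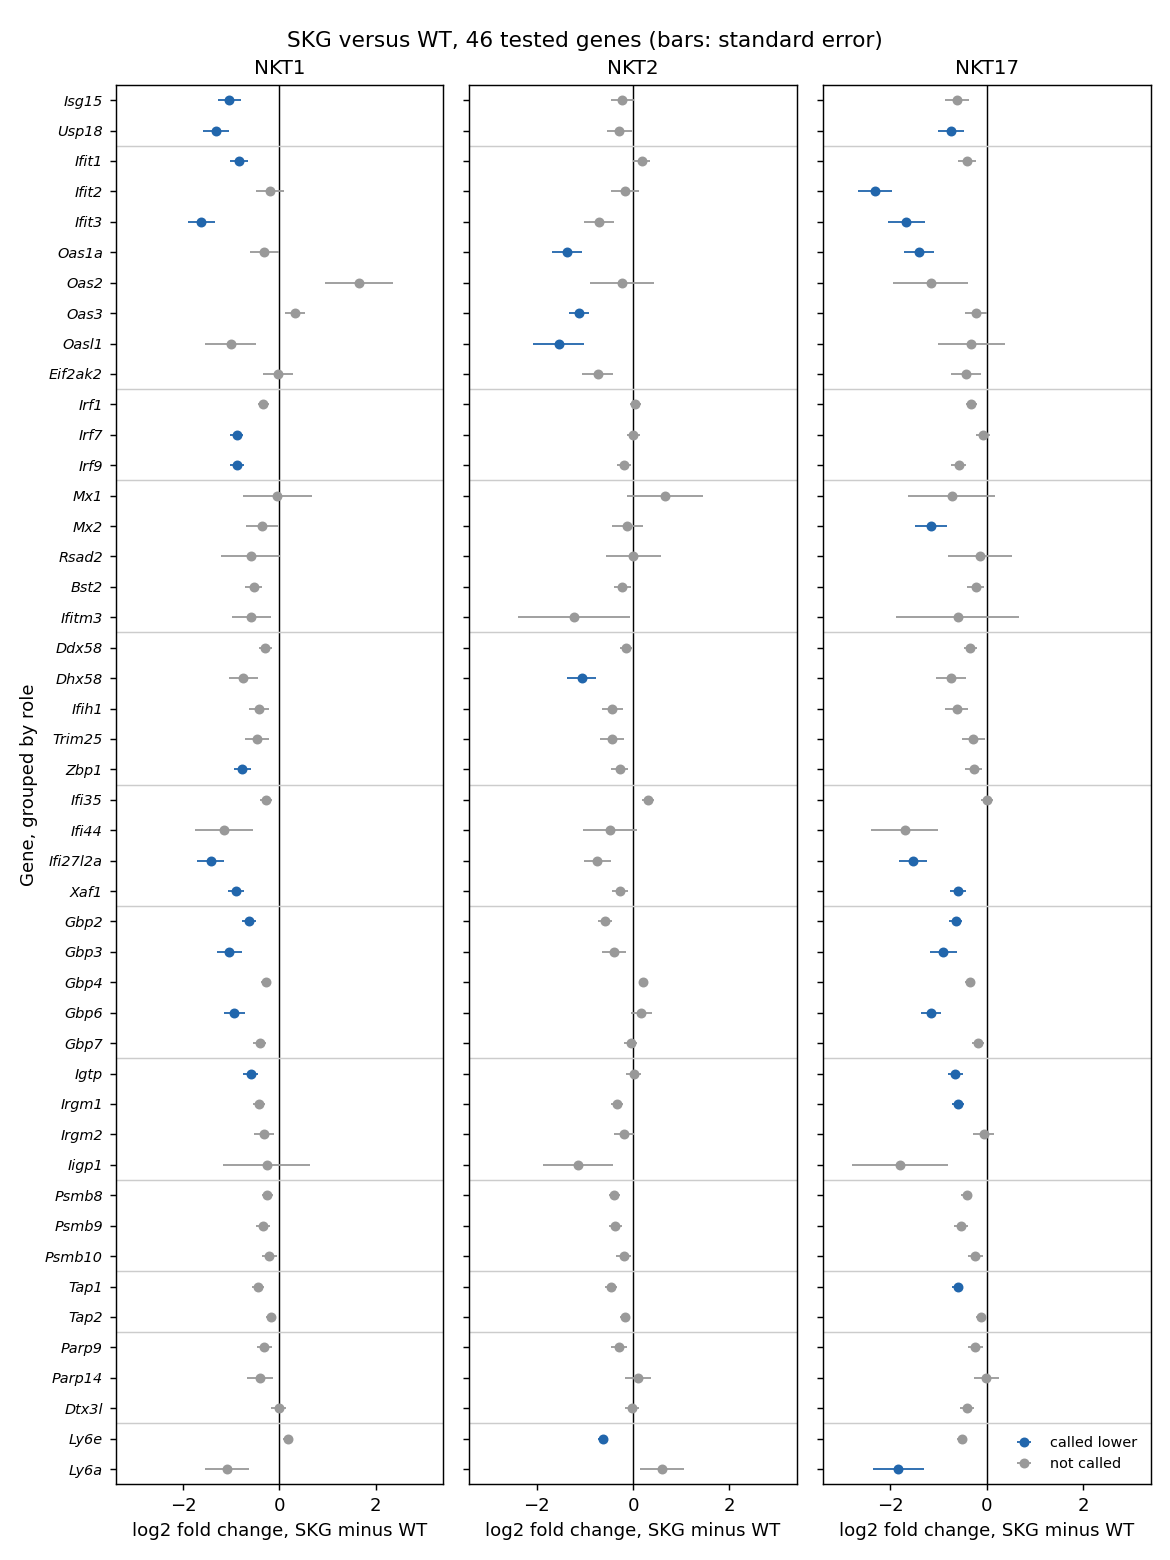
Log2 fold change of SKG over WT (x axis) for the 46 tested members in NKT1, NKT2 and NKT17. Bars are SE from the edgeR fit of all 18 libraries, and the calls are marked. Most points sit left of 0, with 43, 35 and 45 members below 0 in NKT1, NKT2 and NKT17.

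Among the regulators, Irf7 and Irf9 were lower in SKG NKT1 and Irf1 was called in no subset. Irf7 (chr7:148448605-148452380, minus strand, on mm9 as are the positions that follow), the factor that drives transcription of type I interferon genes, was at 330.0, 314 and 369 CPM in WT and 165, 209 and 173 CPM in SKG in NKT1. All 3 SKG libraries lay below the WT libraries (log2 fold change -0.89, SE 0.14, adjusted p = 0.000578), and the call held under each of 12 alternatives. Irf7 in NKT2 was at 138, 194 and 162 CPM in WT and 153, 176 and 168 CPM in SKG. Irf7 in NKT17 was at 120.5, 163 and 111 CPM in WT and 121, 123 and 128 CPM in SKG. These groups overlapped (log2 fold change 0.01 and -0.08, adjusted p = 0.995 and 0.82). Irf9 (chr14:56222408-56228867, plus strand), which gives the type I interferon complex its DNA contact, was at 173, 183 and 222 CPM in WT and 106, 85 and 122 CPM in SKG in NKT1, with no overlap (log2 fold change -0.88, SE 0.15, adjusted p = 0.00147). Irf9 in NKT2 was at 131, 162 and 146 CPM in WT and 116, 148 and 122 CPM in SKG. Irf9 in NKT17 was at 135, 169.9 and 118 CPM in WT and 96.9, 97.4 and 88.2 CPM in SKG. NKT2 libraries overlapped (log2 fold change -0.19, SE 0.15, adjusted p = 0.529), and in NKT17 all SKG libraries were below WT with a difference just under 1.5-fold (log2 fold change -0.58, SE 0.15, adjusted p = 0.0157). Irf1, induced by interferon-γ, was at 439 ± 58.8 CPM in WT and 348 ± 37 CPM in SKG NKT1 (SD, n = 3, log2 fold change -0.34, SE 0.11, adjusted p = 0.125), and its differences in NKT2 and NKT17 were 0.05 and -0.32 on the log2 scale. Exons of Irf1 and Irf7 overlap annotated genes of the opposite strand, and those of Irf9 a gene of the same strand, and the sources used here do not give whether strand was used in counting.

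Both members of the ubiquitin-like system were lower in SKG NKT1. Isg15 (chr4:155573533-155574927, minus strand), a ubiquitin-like protein that is attached to other proteins, was at 36.5, 34.8 and 40.7 CPM in WT and 19.9, 18.5 and 16.1 CPM in SKG in NKT1. The genotypes did not overlap there (log2 fold change -1.04, SE 0.24, adjusted p = 0.0195). Isg15 in NKT2 was at 52.3, 48.1 and 40.3 CPM in WT and 45.1, 36 and 39.3 CPM in SKG. Isg15 in NKT17 was at 34.2, 31.6 and 14.7 CPM in WT and 20.4, 17.4 and 14.3 CPM in SKG. Both subsets showed overlap (log2 fold change -0.22 and -0.61, adjusted p = 0.664 and 0.132). Usp18 (chr6:121195924-121220934, plus strand), the protease that removes Isg15 and restrains the type I interferon receptor, was at 41.8, 64 and 60.9 CPM in WT and 30.5, 18.3 and 18 CPM in SKG in NKT1, again without overlap (log2 fold change -1.31, SE 0.26, adjusted p = 0.00568). Usp18 in NKT2 was at 48.2, 39.3 and 28.5 CPM in WT and 28, 36.4 and 30.5 CPM in SKG. Usp18 in NKT17 was at 31, 28.7 and 18.7 CPM in WT and 19.3, 16.2 and 11.3 CPM in SKG. The NKT2 libraries overlapped (log2 fold change -0.29, SE 0.26, adjusted p = 0.597), and in NKT17 the highest SKG library stood above the lowest WT library although the difference was called (log2 fold change -0.73, SE 0.27, adjusted p = 0.09997). The Usp18 call in NKT17 was lost with upper-quartile scaling (adjusted p = 0.102), with no filter on low counts (adjusted p = 0.101) and when only the libraries compared were fitted (adjusted p = 0.109). Usp18 without WT NKT17 replicate 1 (adjusted p = 0.307) and without WT NKT17 replicate 2 (adjusted p = 0.208) lost its call likewise. Usp18 without SKG NKT17 replicate 2 (adjusted p = 0.158) and without SKG NKT17 replicate 3 (adjusted p = 0.355) lost its call likewise. For Usp18 in NKT17 the adjusted p was 0.0499 to 0.355 over 12 alternatives.

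The Ifit genes, whose proteins bind foreign RNA and halt its translation, lie side by side on chromosome 19, and each fell in SKG in at least 1 subset. Ifit3 (chr19:34658021-34663221, plus strand), whose window with ISRE cores is printed above, was at 71.1, 72.6 and 66.1 CPM in WT and 29.9, 19 and 19.4 CPM in SKG in NKT1. Ifit3 in NKT17 was at 7.03, 6.26 and 3.02 CPM in WT and 0.992, 2.79 and 1.31 CPM in SKG. Neither subset showed overlap (NKT1, log2 fold change -1.62, SE 0.29, adjusted p = 0.00201; NKT17, log2 fold change -1.66, SE 0.39, adjusted p = 0.0069), and both calls held under each of 12 alternatives. In NKT2 it was at 11.4, 18.3 and 13.4 CPM in WT and 8.15, 9.59 and 8.83 CPM in SKG, also without overlap but not called (log2 fold change -0.70, SE 0.31, adjusted p = 0.185). Ifit2 (chr19:34625184-34650909, plus strand) was at 19.5, 13.4 and 11.7 CPM in WT and 1.98, 5.23 and 1.69 CPM in SKG in NKT17, from 100, 77 and 85 counts in WT and 14, 30 and 9 in SKG. That was the largest fall of any member in any subset (log2 fold change -2.32, SE 0.36, adjusted p = 0.000138), with no overlap, and it was called under each of 12 alternatives. Ifit2 in NKT1 was at 40.4, 43 and 27.1 CPM in WT and 25.3, 40.2 and 31 CPM in SKG. Ifit2 in NKT2 was at 31.1, 44.9 and 26.7 CPM in WT and 26.4, 28.8 and 36.1 CPM in SKG. There the genotypes overlapped (log2 fold change -0.20 and -0.17, adjusted p = 0.858 and 0.818). Ifit1 (chr19:34715361-34724499, plus strand) was at 114, 114 and 109 CPM in WT and 71.2, 53.5 and 62.7 CPM in SKG in NKT1, where the genotypes were apart (log2 fold change -0.84, SE 0.18, adjusted p = 0.00976). Ifit1 in NKT2 was at 63.4, 65.4 and 45.9 CPM in WT and 59, 71.5 and 66.6 CPM in SKG. Ifit1 in NKT17 was at 52.5, 39.3 and 31.6 CPM in WT and 26.2, 37.3 and 29.1 CPM in SKG. Libraries of the genotypes overlapped in both (log2 fold change 0.18 and -0.41, adjusted p = 0.652 and 0.203). Ifit3 has a close copy in the mouse genome, and how reads that match several copies were treated is not given in the sources used here, which holds also for Oas1a, Ifi27l2a, Gbp6, Igtp and Ly6a below.

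Of the oligoadenylate synthetases, which make the messenger that switches on RNase L, and their relatives, 3 were lower in SKG NKT2 and 1 of these also in SKG NKT17. Oas1a (chr5:121346265-121357536, minus strand) was at 50.1, 65.4 and 39.9 CPM in WT and 23.6, 19.4 and 17.2 CPM in SKG in NKT2. Oas1a in NKT17 was at 33.6, 44 and 18.9 CPM in WT and 15.4, 9.94 and 10.7 CPM in SKG. No SKG library reached WT in either (NKT2, log2 fold change -1.37, SE 0.31, adjusted p = 0.00495, and NKT17, log2 fold change -1.41, SE 0.31, adjusted p = 0.00496), and both calls held under each of 12 alternatives. In NKT1 it was at 15.7, 22.5 and 31.5 CPM in WT and 23.2, 19.4 and 13.3 CPM in SKG, with overlap (log2 fold change -0.31, SE 0.31, adjusted p = 0.736). Oas3 (chr5:121203107-121227670, minus strand) was at 89.7, 90.2 and 92.1 CPM in WT and 32.4, 53.6 and 39.3 CPM in SKG in NKT2, where SKG lay below WT in every library (log2 fold change -1.12, SE 0.21, adjusted p = 0.00115) under each of 12 alternatives. Oas3 in NKT1 was at 80.6, 74.5 and 85 CPM in WT and 96.2, 123 and 81.8 CPM in SKG. Oas3 in NKT17 was at 33, 20.5 and 18.1 CPM in WT and 25.4, 16.9 and 18.6 CPM in SKG. Both sets of libraries overlapped (log2 fold change 0.32 and -0.22, adjusted p = 0.537 and 0.638). Oasl1 (chr5:115373249-115387924, plus strand), a synthetase-like protein without that activity which restrains translation of Irf7, was at 11.4, 17 and 18.4 CPM in WT and 5.29, 8.03 and 2.89 CPM in SKG in NKT2 (56, 97 and 114 against 24, 41 and 18 counts), without overlap (log2 fold change -1.54, SE 0.53, adjusted p = 0.0789). The Oasl1 call in NKT2 was lost without WT NKT2 replicate 2 (adjusted p = 0.187) and without SKG NKT2 replicate 1 (adjusted p = 0.188). Oasl1 without WT NKT2 replicate 3 (adjusted p = 0.211) and without SKG NKT2 replicate 3 (adjusted p = 0.286) lost its call likewise. For Oasl1 in NKT2 the adjusted p was 0.0145 to 0.286 over 11 alternatives. Oasl1 in NKT1 was at 4.59, 11.1 and 15.4 CPM in WT and 6.13, 5 and 4.16 CPM in SKG. Oasl1 in NKT17 was at 0.781, 0.696 and 2.20 CPM in WT and 0.283, 2.09 and 0.751 CPM in SKG. Overlap was seen in both (log2 fold change -1.01 and -0.32, adjusted p = 0.409 and 0.864). Exons of Oasl1 overlap a gene of the opposite strand. Oas2 was at 2.90, 1.34 and 1.42 CPM in WT and 9.85, 3.12 and 5.37 CPM in SKG in NKT1, with all SKG libraries above WT but no call (log2 fold change 1.66, SE 0.70, adjusted p = 0.281). With the title token as a block, which is not a pairing of WT with SKG libraries, Oas2 was called higher in SKG NKT1 (log2 fold change 2.60, adjusted p = 0.0587). Its differences in NKT2 and NKT17 were -0.22 and -1.16 on the log2 scale (adjusted p = 0.9 and 0.422). Oasl2 was counted at most 13 times in a library, and Eif2ak2, the RNA-activated kinase that stops translation, was called in no comparison.

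Among sensors of foreign nucleic acid, Zbp1 was lower in SKG NKT1 and Dhx58 in SKG NKT2. Zbp1 (chr2:173032113-173044424, minus strand), which binds left-handed double helices and can start necroptosis, was at 156, 125 and 150.4 CPM in WT and 72.3, 84.1 and 96.8 CPM in SKG in NKT1, with no overlap (log2 fold change -0.77, SE 0.17, adjusted p = 0.0143). The Zbp1 call in NKT1 was lost without SKG NKT1 replicate 1 (adjusted p = 0.1004). For Zbp1 in NKT1 the adjusted p was 0.00223 to 0.1004 over 12 alternatives. Zbp1 in NKT2 was at 136, 187 and 162 CPM in WT and 138, 139 and 123 CPM in SKG. Zbp1 in NKT17 was at 118, 131 and 71.5 CPM in WT and 88.5, 87.1 and 89.9 CPM in SKG. In these subsets the genotypes overlapped (log2 fold change -0.28 and -0.27, adjusted p = 0.381 and 0.401). Dhx58 (chr11:100556018-100565585, minus strand), the LGP2 helicase that tunes RNA sensing, was at 33.1, 39.8 and 31.4 CPM in WT and 15, 18.2 and 16.5 CPM in SKG in NKT2, with SKG below WT in every library (log2 fold change -1.07, SE 0.29, adjusted p = 0.025). The Dhx58 call in NKT2 was lost without WT NKT2 replicate 2 (adjusted p = 0.106) and without SKG NKT2 replicate 1 (adjusted p = 0.1004). For Dhx58 in NKT2 the adjusted p was 0.00264 to 0.106 over 12 alternatives. Dhx58 in NKT1 was at 27, 22.9 and 34 CPM in WT and 23, 13.7 and 13.2 CPM in SKG. Dhx58 in NKT17 was at 9.18, 23.8 and 13.7 CPM in WT and 11.2, 9.25 and 7.51 CPM in SKG. These overlapped (log2 fold change -0.75 and -0.74, adjusted p = 0.229 and 0.155), and exons of Dhx58 overlap a gene of the opposite strand. The RNA sensors Ddx58 (RIG-I) and Ifih1 (MDA5) and the ligase Trim25 were called in no comparison of genotypes, with log2 fold changes from -0.47 (Trim25 in NKT1) to -0.15 (Ddx58 in NKT2) apart from Ifih1 in NKT17 (log2 fold change -0.62, SE 0.23, adjusted p = 0.107).

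Of the dynamin-like and membrane-acting restriction factors, only Mx2 was called between genotypes, in NKT17. Mx2 (chr16:97757690-97782506, plus strand), a dynamin-like GTPase, was at 14.6, 20.2 and 14.7 CPM in WT and 5.67, 6.98 and 9.76 CPM in SKG in NKT17, with no overlap (log2 fold change -1.15, SE 0.33, adjusted p = 0.0303). The Mx2 call in NKT17 was lost without WT NKT17 replicate 2 (adjusted p = 0.107) and without SKG NKT17 replicate 1 (adjusted p = 0.152). For Mx2 in NKT17 the adjusted p was 0.0106 to 0.152 over 12 alternatives. Mx2 in NKT1 was at 13, 8.97 and 12.8 CPM in WT and 11.1, 8.54 and 7.45 CPM in SKG. Mx2 in NKT2 was at 13.5, 14.3 and 6.63 CPM in WT and 10.8, 12.1 and 8.83 CPM in SKG. WT and SKG overlapped in both (log2 fold change -0.36 and -0.12, adjusted p = 0.711 and 0.897). Mx1 and Rsad2 were low throughout, at no more than 12.5 and 10.5 CPM in any library. Bst2, which tethers budding virus to the cell surface, was at 78.8, 72 and 88 CPM in WT and 46.8, 51 and 66.9 CPM in SKG in NKT1, all SKG libraries below WT, without a call (log2 fold change -0.53, SE 0.18, adjusted p = 0.12). Ifitm3, which hinders fusion in endosomes, was at 265, 144 and 154 CPM in WT and 122, 176 and 78 CPM in SKG in NKT1, and the genotypes overlapped (log2 fold change -0.58, SE 0.40, adjusted p = 0.591).

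Ifi27l2a and Xaf1 were lower in both SKG NKT1 and SKG NKT17. Ifi27l2a (chr12:104680377-104681890, minus strand), a small interferon-induced protein, was at 366, 376 and 428 CPM in WT and 112, 142 and 181 CPM in SKG in NKT1. Ifi27l2a in NKT17 was at 160.3, 267 and 97.7 CPM in WT and 61.8, 53.7 and 65.5 CPM in SKG. SKG lay below WT throughout (NKT1, log2 fold change -1.43, SE 0.28, adjusted p = 0.0133; NKT17, log2 fold change -1.53, SE 0.29, adjusted p = 0.00343), and both calls held under each of 12 alternatives. In NKT2 it was at 466, 558 and 504 CPM in WT and 347, 234 and 334 CPM in SKG, without overlap and without a call (log2 fold change -0.74, SE 0.28, adjusted p = 0.132). Its exons overlap the neighbouring copy Ifi27l2b on the same strand, so reads within the overlap cannot be assigned to 1 of the 2. Xaf1 (chr11:72115131-72127235, plus strand), which antagonises an inhibitor of apoptosis, was at 78.8, 74.1 and 98 CPM in WT and 45.1, 47.9 and 40.7 CPM in SKG in NKT1. Xaf1 in NKT17 was at 47, 62.1 and 44.9 CPM in WT and 34.7, 29.8 and 37.7 CPM in SKG. There was no overlap (NKT1, log2 fold change -0.91, SE 0.16, adjusted p = 0.00214; NKT17, log2 fold change -0.59, SE 0.16, adjusted p = 0.0254). The Xaf1 call in NKT17 was lost with upper-quartile scaling (log2 fold change -0.58, under 1.5-fold) and without WT NKT17 replicate 2 (adjusted p = 0.122). Xaf1 without SKG NKT17 replicate 2 (adjusted p = 0.102) lost its call likewise. For Xaf1 in NKT17 the adjusted p was 0.0106 to 0.122 over 12 alternatives. In NKT2 Xaf1 was at 86.9, 84.6 and 72.1 CPM in WT and 75.3, 68.7 and 57.6 CPM in SKG, with overlap (log2 fold change -0.27, SE 0.16, adjusted p = 0.355). Ifi44 had a log2 fold change of -1.15, -0.48 and -1.70 in NKT1, NKT2 and NKT17 and was not called (adjusted p = 0.433, 0.702 and 0.168).

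**Figure D3:**
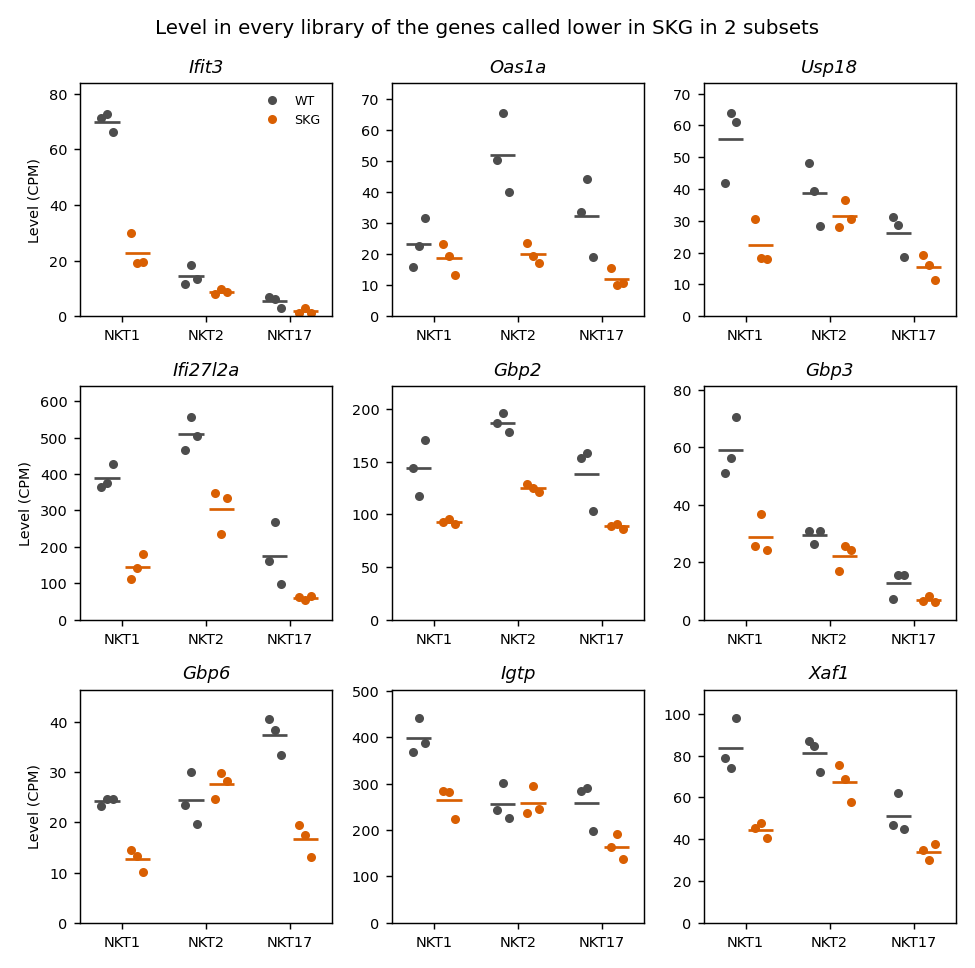
Level in CPM (y axis) of the 9 members called lower in SKG in 2 subsets, for WT and SKG libraries of NKT1, NKT2 and NKT17 (x axis). Points are libraries and lines are means of 3. Ifit3 was at 66.1 to 72.6 CPM in WT NKT1 and at 19.0 to 29.9 CPM in SKG NKT1.

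Of the 5 guanylate-binding proteins, GTPases that gather on the vacuoles of intracellular microbes, Gbp2, Gbp3 and Gbp6 were lower in SKG NKT1 and SKG NKT17. Gbp2 (chr3:142283566-142300972, plus strand) was at 144, 117 and 171 CPM in WT and 92.7, 96 and 90.8 CPM in SKG in NKT1. Gbp2 in NKT17 was at 154, 159 and 103 CPM in WT and 88.7, 90.6 and 86.5 CPM in SKG. No SKG library reached WT (NKT1, log2 fold change -0.63, SE 0.14, adjusted p = 0.016; NKT17, log2 fold change -0.64, SE 0.14, adjusted p = 0.00464). The Gbp2 call in NKT1 was lost without WT NKT1 replicate 3 (log2 fold change -0.48, under 1.5-fold). For Gbp2 in NKT1 the adjusted p was 0.00313 to 0.0884 over 12 alternatives. The Gbp2 call in NKT17 was lost without WT NKT17 replicate 1 (log2 fold change -0.57, under 1.5-fold) and without WT NKT17 replicate 2 (log2 fold change -0.53, under 1.5-fold). For Gbp2 in NKT17 the adjusted p was 0.000196 to 0.0283 over 12 alternatives. In NKT2 Gbp2 was at 187, 196 and 179 CPM in WT and 129, 125 and 121 CPM in SKG, without overlap, and the difference was just under 1.5-fold (log2 fold change -0.58, SE 0.14, adjusted p = 0.01). Gbp3 (chr3:142223016-142236173, plus strand), printed above with its overlapping ISRE cores, was at 50.8, 56.1 and 70.5 CPM in WT and 25.5, 36.7 and 24.3 CPM in SKG in NKT1. Gbp3 in NKT17 was at 7.03, 15.5 and 15.6 CPM in WT and 6.37, 8.03 and 6.19 CPM in SKG. NKT1 libraries did not overlap (log2 fold change -1.04, SE 0.25, adjusted p = 0.0244), while in NKT17 WT replicate 1 lay among the SKG libraries (log2 fold change -0.90, SE 0.28, adjusted p = 0.0488). The Gbp3 call in NKT1 was lost without SKG NKT1 replicate 1 (adjusted p = 0.136) and without SKG NKT1 replicate 3 (adjusted p = 0.133). For Gbp3 in NKT1 the adjusted p was 0.00509 to 0.136 over 12 alternatives. The Gbp3 call in NKT17 was lost when only the libraries compared were fitted (adjusted p = 0.15), without WT NKT17 replicate 2 (adjusted p = 0.15) and without SKG NKT17 replicate 1 (adjusted p = 0.161). Gbp3 without WT NKT17 replicate 3 (adjusted p = 0.192) and without SKG NKT17 replicate 3 (adjusted p = 0.162) lost its call likewise. For Gbp3 in NKT17 the adjusted p was 0.00627 to 0.192 over 12 alternatives. In NKT2 Gbp3 was at 30.9, 26.4 and 30.7 CPM in WT and 16.7, 25.6 and 24.2 CPM in SKG, without overlap or call (log2 fold change -0.40, SE 0.26, adjusted p = 0.412).

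Gbp6 (chr5:105699723-105722718, minus strand) was at 23.2, 24.6 and 24.6 CPM in WT and 14.5, 13.3 and 10.0 CPM in SKG in NKT1. Gbp6 in NKT17 was at 40.6, 38.3 and 33.4 CPM in WT and 19.5, 17.4 and 13.1 CPM in SKG. SKG lay below WT in both (NKT1, log2 fold change -0.94, SE 0.22, adjusted p = 0.02; NKT17, log2 fold change -1.16, SE 0.22, adjusted p = 0.00101), the NKT17 call holding under each of 12 alternatives. The Gbp6 call in NKT1 was lost when only the libraries compared were fitted (adjusted p = 0.162) and without SKG NKT1 replicate 3 (adjusted p = 0.122). For Gbp6 in NKT1 the adjusted p was 0.00333 to 0.162 over 12 alternatives. In NKT2 Gbp6 was at 23.5, 30.1 and 19.7 CPM in WT and 24.7, 29.8 and 28.3 CPM in SKG, with overlap (log2 fold change 0.18, SE 0.21, adjusted p = 0.714). Gbp4 and Gbp7 were called between genotypes in no subset, their log2 fold changes in NKT1, NKT2 and NKT17 being -0.27, 0.22 and -0.34 for Gbp4 and -0.41, -0.05 and -0.18 for Gbp7.

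The immunity-related GTPases act beside the guanylate-binding proteins, with Igtp and Irgm1 as regulators that guard the cell's own membranes. Igtp (chr11:58013058-58021093, plus strand) was at 368, 441 and 388 CPM in WT and 284, 283 and 224 CPM in SKG in NKT1. Igtp in NKT17 was at 284, 289.5 and 198 CPM in WT and 163, 191 and 138 CPM in SKG. SKG libraries lay below WT (NKT1, log2 fold change -0.60, SE 0.15, adjusted p = 0.0343; NKT17, log2 fold change -0.65, SE 0.15, adjusted p = 0.00874). The Igtp call in NKT1 was lost with upper-quartile scaling (log2 fold change -0.57, under 1.5-fold) and when only the libraries compared were fitted (log2 fold change -0.58, under 1.5-fold). Igtp without WT NKT1 replicate 2 (adjusted p = 0.141) and without SKG NKT1 replicate 3 (adjusted p = 0.179) lost its call likewise. For Igtp in NKT1 the adjusted p was 0.0119 to 0.179 over 12 alternatives. The Igtp call in NKT17 was lost without WT NKT17 replicate 1 (log2 fold change -0.58, under 1.5-fold) and without WT NKT17 replicate 2 (log2 fold change -0.56, under 1.5-fold). Igtp without SKG NKT17 replicate 3 (log2 fold change -0.54, under 1.5-fold) lost its call likewise. For Igtp in NKT17 the adjusted p was 0.00129 to 0.0625 over 12 alternatives. In NKT2 Igtp was at 243, 302 and 225 CPM in WT and 236, 296 and 244 CPM in SKG, with overlap (log2 fold change 0.01, SE 0.15, adjusted p = 0.987). Irgm1 (chr11:48675470-48685185, minus strand) was at 270.4, 217 and 194 CPM in WT and 143, 162 and 144 CPM in SKG in NKT17, with SKG below WT in every library (log2 fold change -0.60, SE 0.12, adjusted p = 0.00197). The Irgm1 call in NKT17 was lost without WT NKT17 replicate 1 (log2 fold change -0.46, under 1.5-fold) and without SKG NKT17 replicate 1 (log2 fold change -0.57, under 1.5-fold). Irgm1 without SKG NKT17 replicate 3 (log2 fold change -0.57, under 1.5-fold) lost its call likewise. For Irgm1 in NKT17 the adjusted p was 5.78e-05 to 0.0199 over 12 alternatives. Irgm1 in NKT1 was at 231, 216 and 231 CPM in WT and 178, 179 and 149 CPM in SKG. Irgm1 in NKT2 was at 245, 249 and 208 CPM in WT and 193, 192 and 173 CPM in SKG. Here SKG was also below WT throughout, by less than 1.5-fold (log2 fold change -0.42 and -0.33, adjusted p = 0.0623 and 0.0995). Irgm2 had log2 fold changes of -0.32, -0.19 and -0.06 and was not called.

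Of the antigen-processing members, Tap1 was called between genotypes, in NKT17. Tap1 (chr17:34324498-34334170, plus strand), a subunit of the pump that carries peptides into the endoplasmic reticulum, was at 174, 208 and 169.9 CPM in WT and 111, 112 and 140.0 CPM in SKG in NKT17, with all SKG libraries below WT (log2 fold change -0.60, SE 0.12, adjusted p = 0.0021). The Tap1 call in NKT17 was lost without WT NKT17 replicate 2 (log2 fold change -0.51, under 1.5-fold) and without SKG NKT17 replicate 1 (log2 fold change -0.54, under 1.5-fold). Tap1 without SKG NKT17 replicate 2 (log2 fold change -0.55, under 1.5-fold) lost its call likewise. For Tap1 in NKT17 the adjusted p was 7.79e-05 to 0.0186 over 12 alternatives. Tap1 in NKT1 was at 189.8, 211 and 235 CPM in WT and 160.0, 137 and 171 CPM in SKG. Tap1 in NKT2 was at 221, 257 and 241 CPM in WT and 174, 181 and 167 CPM in SKG. SKG was below WT throughout at an adjusted p under 0.1, by less than 1.5-fold (log2 fold change -0.44 and -0.46, adjusted p = 0.0502 and 0.0174). Its partner Tap2 had log2 fold changes of -0.18, -0.16 and -0.12 in NKT1, NKT2 and NKT17 (adjusted p = 0.45, 0.376 and 0.564). Psmb8, Psmb9 and Psmb10, the catalytic subunits of the immunoproteasome, had 9 log2 fold changes between -0.53 (Psmb9 in NKT17) and -0.20 (Psmb10 in NKT2), and none was called. Psmb8 was at 1042, 1203 and 880.4 CPM in WT and 836, 687 and 819 CPM in SKG in NKT17, without overlap (log2 fold change -0.42, SE 0.11, adjusted p = 0.0189). Exons of Psmb8, Tap1 and Tap2 overlap genes of the opposite strand, Psmb9 in the case of Tap1, and Psmb9 had no unique position in the annotation.

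Both Ly6 surface proteins were called lower in SKG, each in 1 subset. Ly6e (chr15:74785481-74790335, plus strand), a lipid-anchored protein of the cell surface, was at 1430.1, 1343 and 1558 CPM in WT and 928, 923 and 956 CPM in SKG in NKT2, with no overlap (log2 fold change -0.63, SE 0.10, adjusted p = 0.000213). The Ly6e call in NKT2 was lost without WT NKT2 replicate 3 (log2 fold change -0.57, under 1.5-fold). For Ly6e in NKT2 the adjusted p was 3.12e-08 to 0.00249 over 12 alternatives. Ly6e in NKT1 was at 648, 812 and 847 CPM in WT and 907, 873 and 835 CPM in SKG. Ly6e in NKT17 was at 1606, 1479 and 1456 CPM in WT and 1162, 989 and 1029.6 CPM in SKG. NKT1 libraries overlapped, and in NKT17 SKG lay below WT by less than 1.5-fold (log2 fold change 0.18 and -0.51, adjusted p = 0.453 and 0.00161). Ly6a (chr15:74825308-74828064, minus strand), known as Sca-1, was at 7.03, 26.4 and 7.27 CPM in WT and 6.37, 3.31 and 1.31 CPM in SKG in NKT17 (36, 152 and 53 against 45, 19 and 7 counts), where WT replicate 2 was far above the other WT libraries (log2 fold change -1.84, SE 0.53, adjusted p = 0.0377). The Ly6a call in NKT17 was lost when only the libraries compared were fitted (adjusted p = 0.102) and without WT NKT17 replicate 2 (adjusted p = 0.238). Ly6a without SKG NKT17 replicate 2 (adjusted p = 0.115) and without SKG NKT17 replicate 3 (adjusted p = 0.144) lost its call likewise. For Ly6a in NKT17 the adjusted p was 0.00218 to 0.238 over 12 alternatives. Ly6a in NKT1 was at 32.6, 50.03 and 27.8 CPM in WT and 21.7, 15 and 15.1 CPM in SKG. Ly6a in NKT2 was at 20.8, 29 and 15.2 CPM in WT and 28.4, 29.2 and 41.1 CPM in SKG. SKG lay below WT in NKT1 and overlapped it in NKT2, and neither was called (log2 fold change -1.09 and 0.60, adjusted p = 0.3 and 0.51). Parp9, its partner ligase Dtx3l and Parp14 were called in no comparison. In all, 10 members were called in none of the 12 comparisons, Oasl2, Bst2, Trim25, Psmb8, Psmb10, Tap2, Parp9, Parp14, Dtx3l and Eif2ak2, and their levels ran from 0 to 2.66 CPM for Oasl2 up to 687 to 1490 CPM for Psmb8.

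Whether the genotype difference itself differed between subsets was tested by subtracting the log2 fold changes of SKG over WT, and these contrasts share libraries with the ones above and with each other. Between NKT2 and NKT1, 5 members were called higher (2.09% of all genes tested) and 2 lower (1.78%). Oas3 (difference -1.44, SE 0.30, adjusted p = 0.00591) and Ly6e (difference -0.81, SE 0.14, adjusted p = 0.00149) were more reduced in NKT2, and both held under each of 18 alternatives. Irf7 was more reduced in NKT1 (difference 0.89, SE 0.20, adjusted p = 0.0119), under each of 18 alternatives. Gbp6 (1.11, adjusted p = 0.0533), Ifit1 (1.02, adjusted p = 0.0305), Irf9 (0.69, adjusted p = 0.0916) and Ifi35 (0.59, adjusted p = 0.0616) went the same way as Irf7. Ifi35, a protein that binds Nmi, was at 141, 140.2 and 131 CPM in WT and 119, 104 and 116 CPM in SKG in NKT1 and at 85.8, 90.9 and 91.3 CPM in WT and 112, 106 and 115 CPM in SKG in NKT2, below WT in the first and above it in the second, and at 101, 108 and 78.1 CPM in WT and 100.01, 91.9 and 97 CPM in SKG in NKT17. Neither of its differences was called within a subset (log2 fold change -0.28 and 0.31, adjusted p = 0.272 and 0.122). The Gbp6 difference between NKT2 and NKT1 was lost without WT NKT2 replicate 1 (adjusted p = 0.113), without SKG NKT2 replicate 2 (adjusted p = 0.131) and without WT NKT2 replicate 3 (adjusted p = 0.152). Gbp6 without SKG NKT1 replicate 3 (adjusted p = 0.149) and without SKG NKT2 replicate 3 (adjusted p = 0.119) lost its call likewise. For this difference in Gbp6 the adjusted p was 0.02 to 0.152 over 18 alternatives. The Ifit1 difference between NKT2 and NKT1 was lost without WT NKT2 replicate 3 (adjusted p = 0.103). For this difference in Ifit1 the adjusted p was 0.0104 to 0.103 over 18 alternatives. Without single libraries the count of 7 was 3 without WT NKT2 replicate 3, 4 without WT NKT2 replicate 1 and 4 without SKG NKT2 replicate 3.

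The calls for Ifi35 and Irf9 were lost under 14 and 12 of 18 alternatives. The Ifi35 difference between NKT2 and NKT1 was lost with DESeq2 (log2 fold change 0.57, under 1.5-fold), RLE size factors (log2 fold change 0.57, under 1.5-fold), upper-quartile scaling (log2 fold change 0.55, under 1.5-fold), no filter on low counts (adjusted p = 0.108), a mean of at least 50 counts (log2 fold change 0.57, under 1.5-fold) and a fit of only the libraries compared (log2 fold change 0.57, under 1.5-fold). Leaving out any of 8 libraries also ended it, namely WT NKT1 replicate 1 (adjusted p = 0.114), WT NKT2 replicate 1 (adjusted p = 0.146), WT NKT1 replicate 2 (adjusted p = 0.106), WT NKT2 replicate 2 (adjusted p = 0.11), SKG NKT2 replicate 1 (adjusted p = 0.141), SKG NKT1 replicate 2 (adjusted p = 0.155), WT NKT2 replicate 3 (adjusted p = 0.114) and SKG NKT2 replicate 3 (adjusted p = 0.16), and the adjusted p was 0.0308 to 0.16 over 18 alternatives. The Irf9 difference between NKT2 and NKT1 was lost with RLE size factors (adjusted p = 0.101), upper-quartile scaling (adjusted p = 0.122) and a fit of only the libraries compared (adjusted p = 0.107). Leaving out any of 9 libraries also ended it, namely WT NKT2 replicate 1 (adjusted p = 0.209), WT NKT1 replicate 2 (adjusted p = 0.107), SKG NKT1 replicate 1 (adjusted p = 0.15), SKG NKT2 replicate 1 (adjusted p = 0.11), SKG NKT1 replicate 2 (adjusted p = 0.221), SKG NKT2 replicate 2 (adjusted p = 0.241), WT NKT1 replicate 3 (adjusted p = 0.171), WT NKT2 replicate 3 (adjusted p = 0.175) and SKG NKT2 replicate 3 (adjusted p = 0.141), and the adjusted p was 0.0574 to 0.241 over 18 alternatives. Between NKT17 and NKT1, 1 member was called higher (2.05% of all genes tested) and 2 lower (2.12%). Irf7 was again less reduced in the other subset (difference 0.81, SE 0.20, adjusted p = 0.0277), while Ifit2 (difference -2.12, SE 0.47, adjusted p = 0.0125) and Ly6e (difference -0.69, SE 0.14, adjusted p = 0.00734) were more reduced in NKT17 under each of 18 alternatives. The Irf7 difference between NKT17 and NKT1 was lost without SKG NKT1 replicate 1 (adjusted p = 0.102). For this difference in Irf7 the adjusted p was 0.00401 to 0.102 over 18 alternatives. Between NKT17 and NKT2, 2 members were called lower (1.05% of all genes tested) and 0 higher (1.14%) in edgeR, with 1 higher at an unadjusted p under 0.05 and 0 higher in DESeq2. These were Ifit2 (difference -2.15, SE 0.47, adjusted p = 0.0165) and Gbp6 (difference -1.33, SE 0.30, adjusted p = 0.0218), and both held under each of 18 alternatives. The count was 4 without WT NKT17 replicate 1, without WT NKT17 replicate 3 and without SKG NKT17 replicate 2. The other members with a call in 1 subset, such as Isg15, Zbp1, Mx2 or Tap1, were not shown to differ between subsets.

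**Figure D4:**
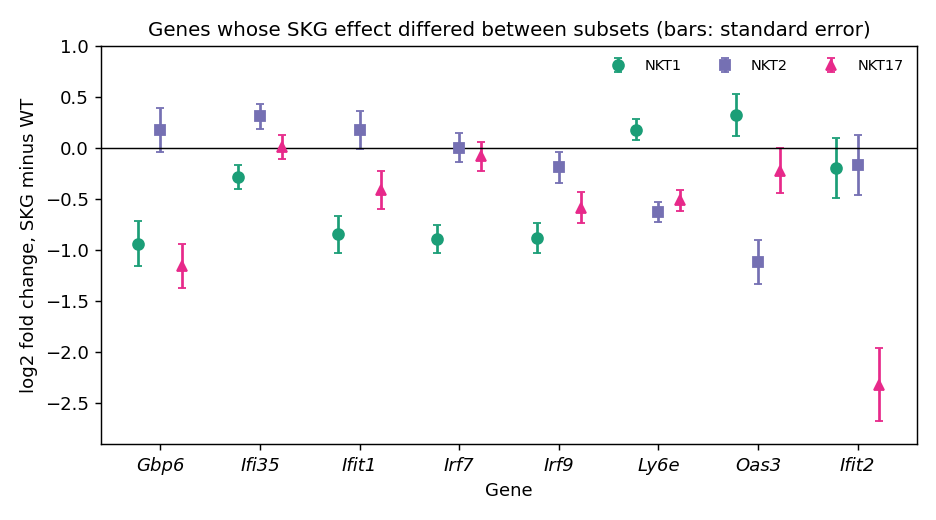
Log2 fold change of SKG over WT (y axis) in NKT1, NKT2 and NKT17 for the 8 members (x axis) whose genotype difference was called different between subsets. Bars are SE from the edgeR fit. Ifit2 sits at -2.32 in NKT17 and at -0.20 and -0.17 in NKT1 and NKT2, and Oas3 sits lowest in NKT2, at -1.12.

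The levels of the members set WT NKT17 apart from the other WT subsets. The log2 fold change put WT NKT17 below WT NKT1 for 38 of 46 tested members and below WT NKT2 for 39. The 3 pairings of WT subsets share libraries, as do those of SKG. NKT1 had 23 members higher (11.2% of all genes tested) and 2 lower (13.5%) than NKT17, with a median log2 fold change of 0.64 against -0.01 over all genes. NKT17 had 1 member higher (11.0%) and 15 lower (8.97%) than NKT2, with a median of -0.53 against 0.01. With the title token as a block, which pairs these WT libraries, Oas1a (log2 fold change -0.70, adjusted p = 0.0569, against 0.104 without it) and Oas2 (log2 fold change -1.73, adjusted p = 0.053, against 0.129) were also called, for 1 higher and 17 lower. NKT1 had 11 members higher (23.9% of the members, against 13.7% of all genes) and 4 lower (8.7%, against 13.7%) than NKT2. The median was 0.04 against 0, so the members as a set hardly differed here. Upper-quartile scaling moved the median of all genes in this last pairing to -0.10 and that of the members to -0.06, with 40.9% of all calls higher in place of 50%. In SKG the matching counts were 20 higher (10.2%) and 0 lower (12.5%) for NKT1 against NKT17, 0 higher (10.5%) and 24 lower (8.27%) for NKT17 against NKT2, and 4 higher (10.0%) and 7 lower (8.63%) for NKT1 against NKT2. For the first of these counts of 0, edgeR gave 1 member at an unadjusted p under 0.05 and DESeq2 called 0, and for the other edgeR gave 0 and DESeq2 called 0.

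The member that stood out was Ifitm3 (chr7:148195485-148196669, minus strand), whose counts came mostly from NKT1. It was at 265, 144 and 154 CPM in WT NKT1, from 2196, 752 and 870 counts, but had 3, 4 and 11 counts in WT NKT2 and 3, 0 and 8 in WT NKT17. The log2 fold change was 7.43 against NKT2 (SE 0.62, adjusted p = 2.79e-07) and 8.24 against NKT17 (SE 0.66, adjusted p = 1.41e-07), values that rest on few counts in the lower groups. In SKG it was at 122, 176 and 78 CPM in NKT1 and had 5, 0 and 2 counts in NKT2 and 0, 1 and 6 in NKT17. The trait was not particular to Ifitm3, as its relatives Ifitm2 and Ifitm1, which are not members, had it too. Their means were 213 and 61.0 CPM in WT NKT1, 0.483 and 0 CPM in WT NKT2, and 0.398 and 0.058 CPM in WT NKT17. Ifit3 was next, higher in WT NKT1 than in NKT2 (log2 fold change 2.27, SE 0.30, adjusted p = 2.33e-06) and NKT17 (log2 fold change 3.70, SE 0.32, adjusted p = 4.15e-09), at the library values given above. Oasl1 was higher in WT NKT1 and WT NKT2 than in WT NKT17 (log2 fold change 2.99 for NKT1 over NKT17, adjusted p = 0.000426, and -3.60 for NKT17 over NKT2, adjusted p = 7.98e-05). These calls for Ifitm3, Ifit3 and Oasl1 held under each alternative that could test them. Mx1 was at 4.10, 11.5 and 9.03 CPM in WT NKT1, 2.04, 2.27 and 2.26 CPM in WT NKT2 and 3.71, 1.04 and 0 CPM in WT NKT17, and was called between the first and second (log2 fold change 1.88, SE 0.77, adjusted p = 0.0663). The Mx1 call between WT NKT1 and WT NKT2 was lost without WT NKT2 replicate 1 (adjusted p = 0.143), without WT NKT1 replicate 2 (adjusted p = 0.182) and without WT NKT2 replicate 2 (adjusted p = 0.138). Mx1 without WT NKT1 replicate 3 (adjusted p = 0.111) and without WT NKT2 replicate 3 (adjusted p = 0.143) lost its call likewise. For this difference in Mx1 the adjusted p was 0.0242 to 0.182 over 11 alternatives. Its SKG libraries were at 5.95, 12.5 and 5.37 CPM in NKT1, 1.98, 1.37 and 6.90 CPM in NKT2 and 0.567, 0.872 and 1.31 CPM in NKT17.

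Other members were highest in NKT2 or NKT17. Iigp1, an effector GTPase that breaks up vacuoles of microbes, was at 0.241, 6.87 and 4.07 CPM in WT NKT1, 32.9, 55.7 and 40.1 CPM in WT NKT2 and 5.47, 3.65 and 2.33 CPM in WT NKT17. It was lower in NKT1 (log2 fold change -3.59, SE 0.84, adjusted p = 0.00402) and in NKT17 (log2 fold change -3.51, SE 0.83, adjusted p = 0.00599) than in NKT2. The SKG libraries had 3.90, 4.58 and 0.520 CPM of Iigp1 in NKT1, 30.2, 12.5 and 15.7 CPM in NKT2 and 2.27, 0 and 0.751 CPM in NKT17. Ifi44 was at 59.3, 57.3 and 57.9 CPM in WT NKT2 and 6.64, 20.2 and 4.53 CPM in WT NKT17 (log2 fold change -2.48, SE 0.61, adjusted p = 0.00789), with 8.33, 42 and 25.7 CPM in WT NKT1, a group of wide spread. Its SKG libraries were at 20.6, 6.46 and 6.76 CPM in NKT1, 47.8, 41.1 and 36 CPM in NKT2 and 3.82, 1.92 and 3.75 CPM in NKT17. Oas1a (log2 fold change -1.16, SE 0.30, adjusted p = 0.00476) and Oas2 (log2 fold change -1.91, SE 0.70, adjusted p = 0.0416) were lower in WT NKT1 than in WT NKT2, where Oas2 was at 2.90, 1.34 and 1.42 and 8.99, 6.99 and 5.98 CPM. The Oas2 call was lost without WT NKT1 replicate 2 (adjusted p = 0.11). For this difference in Oas2 the adjusted p was 0.0208 to 0.11 over 11 alternatives. Taken as NKT1 over NKT17, Ly6e (log2 fold change -0.98, SE 0.10, adjusted p = 6.93e-08) and Gbp6 (log2 fold change -0.63, SE 0.21, adjusted p = 0.0281) were the 2 members higher in WT NKT17, and Gbp6 was the 1 member higher in WT NKT17 than in WT NKT2 (log2 fold change 0.61, SE 0.21, adjusted p = 0.0394). The latter was lost with upper-quartile scaling (log2 fold change 0.56, under 1.5-fold) and without WT NKT17 replicate 1 (adjusted p = 0.114). Gbp6 without WT NKT2 replicate 3 (adjusted p = 0.198) lost its call likewise. For this difference in Gbp6 the adjusted p was 0.0232 to 0.198 over 12 alternatives.

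**Figure D5:**
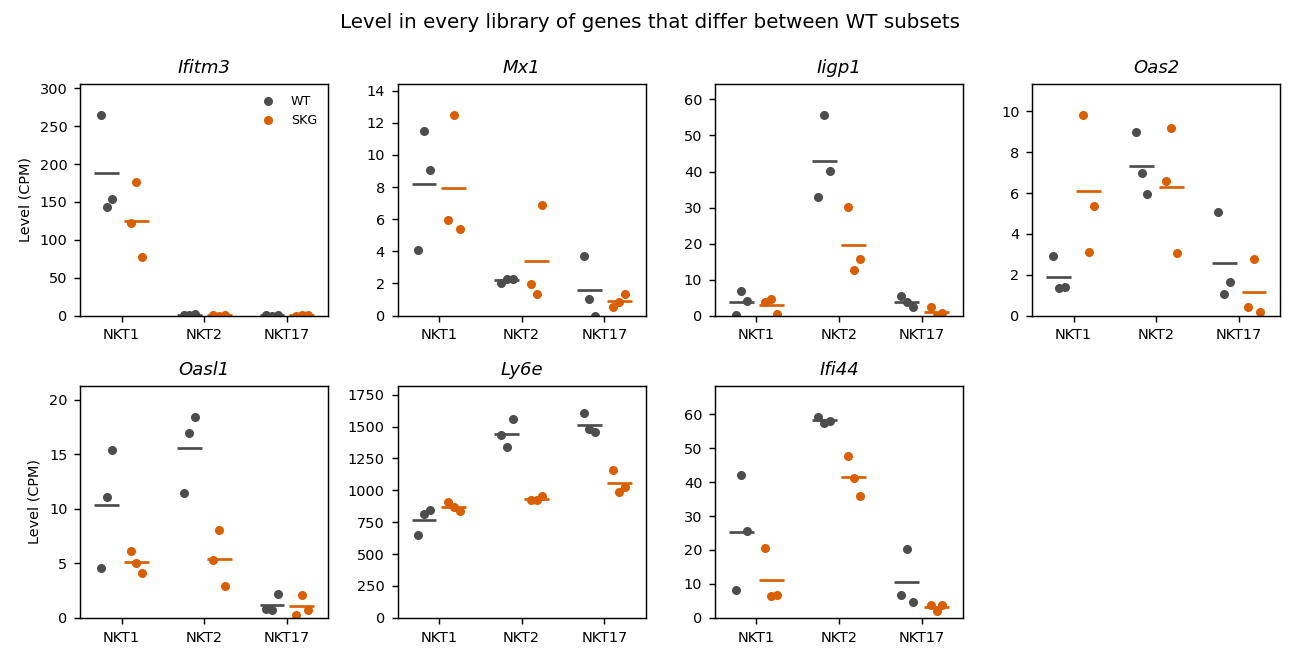
Level in CPM (y axis) of Ifitm3, Mx1, Iigp1, Oas2, Oasl1, Ly6e and Ifi44, for each group (x axis). These are the members among the 3 largest called differences in a direction between WT subsets that are not in the plot of members lower in 2 subsets, which holds Ifit3, Oas1a and Gbp6. Points are libraries and lines are means of 3. Ifitm3 is at 144 to 265 CPM in WT NKT1 and at or below 1.78 CPM in WT NKT2 and WT NKT17, and Iigp1 is highest in WT NKT2 (32.9 to 55.7 CPM).

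Levels of different members were compared per kilobase of annotated exon, as the mean of 3 libraries divided by exon length. On this scale Ifi27l2a led in WT NKT1 (842 CPM per kb) and WT NKT2 (1099.7), while Ly6e led in WT NKT17 (658). Psmb8 was at 392, 502.1 and 381 CPM per kb in WT NKT1, NKT2 and NKT17. In SKG the level of Ifi27l2a was 313, 659 and 130.3 CPM per kb, so that Psmb8 (329.8, 385 and 285) stood above it in NKT1 and NKT17. Ly6e led in SKG NKT1 (379 CPM per kb) and SKG NKT17 (461), and Ifi27l2a led in SKG NKT2. Mx1, Oas2, Rsad2 and Oasl2 were at most 2.25 CPM per kb in any group.

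Genes upstream of the members were read from a list of 22 receptors, kinases, factors and inhibitors, 21 of them tested. In NKT1, 4 were called lower in SKG (19%, against 1.82% of all genes tested). In the same subset 0 were called higher, against 1.46% (DESeq2 0 higher, and 0 at an unadjusted p under 0.05). Ifngr1, the ligand-binding chain of the interferon-γ receptor, was at 1382 ± 79.7 CPM in WT and 803 ± 27.4 CPM in SKG (SD, n = 3, log2 fold change -0.78, SE 0.11, adjusted p = 0.000188). Irf8, an interferon regulatory factor, was also lower (log2 fold change -1.20, SE 0.27, adjusted p = 0.0165). Ifngr2, the other chain of the interferon-γ receptor, was near 0 in NKT1, at means of 0.794 CPM in WT and 0.510 CPM in SKG. It had at most 11 counts in a library there, against means of 65.8 CPM in WT NKT17 and 87.5 CPM in SKG NKT17. In NKT17, 4 were called lower (19%, against 4.54%) and 2 higher (9.52%, against 3.83%). Irf8 fell from 26 ± 5.20 CPM in WT to 3.05 ± 0.681 CPM in SKG (log2 fold change -3.09, SE 0.33, adjusted p = 1.2e-06), and Ifngr1 fell from 686 ± 101 to 338 ± 41.1 CPM (log2 fold change -1.02, SE 0.11, adjusted p = 1.82e-06). Il10rb, a chain shared by the receptors of IL-10 and type III interferons, was higher (log2 fold change 0.80, SE 0.13, adjusted p = 0.000255). In NKT2, Ifngr2, the signalling chain, was the 1 gene called, at 50.1 ± 1.74 CPM in WT and 109 ± 7.81 CPM in SKG (log2 fold change 1.12, SE 0.26, adjusted p = 0.00807), and 0 were called lower (DESeq2 0, and 1 at an unadjusted p under 0.05). These NKT2 shares, 4.76% higher and 0% lower, lay near those of all genes tested, 3.90% and 4.05%. Of 19 interferon genes, 3 had a count in any library and only Ifng was tested, at 218 ± 83.1 CPM in WT NKT1 and 202 ± 36.5 CPM in SKG NKT1 (log2 fold change -0.11, SE 0.24, adjusted p = 0.917), and at 2.65 ± 0.904 CPM in WT NKT2 and 0.123 ± 0.107 CPM in WT NKT17.

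Around the antigen-processing members, 17 of 19 genes of MHC class I and peptide loading were tested. H2-K1 (log2 fold change -0.60, SE 0.12, adjusted p = 0.00563) and H2-Q6 (log2 fold change -0.61, SE 0.13, adjusted p = 0.00938), which encode class I heavy chains, were lower in SKG NKT1, and H2-Q6 was lower in SKG NKT17 (log2 fold change -0.95, SE 0.14, adjusted p = 5.38e-05), although the H2-Q genes are near copies of each other. Cd1d1, the lipid-presenting molecule that iNKT cells recognise, was higher in SKG NKT2 (log2 fold change 0.73, SE 0.18, adjusted p = 0.00974) and SKG NKT17 (log2 fold change 0.64, SE 0.18, adjusted p = 0.027). None of 15 other proteasome subunit genes was called in a comparison of genotypes in edgeR. The 15 include Psmb11, which also served as a marker of thymic epithelium. At an unadjusted p under 0.05 there were 1, 4 and 1 in NKT1, NKT2 and NKT17, and 0 were called in DESeq2. Of all genes tested, 1.46% to 4.54% were called in either direction in a subset, so 0 of 15 does not set this list apart. Of 57 tested further interferon-induced genes, 10 were lower and 1 higher in SKG NKT1, 4 lower and 3 higher in SKG NKT2, and 12 lower and 2 higher in SKG NKT17. The shares lower were 17.5%, 7.02% and 21.1%, and those higher 1.75%, 5.26% and 3.51%, against 1.82%, 4.05% and 4.54% lower and 1.46%, 3.90% and 3.83% higher over all genes tested, so that the NKT2 shares lay near those of all genes. In NKT1 these were led by Isg20, an RNA exonuclease (log2 fold change -1.04, SE 0.14, adjusted p = 0.000114), Rtp4 (log2 fold change -1.21, SE 0.17, adjusted p = 0.000179) and Slfn2 (log2 fold change -0.79, SE 0.14, adjusted p = 0.00246). In NKT2 Trafd1 (log2 fold change -0.90, SE 0.15, adjusted p = 0.000434), the purine-degrading oxidase gene Xdh (log2 fold change -2.02, SE 0.42, adjusted p = 0.00286) and Pyhin1 (log2 fold change -0.82, SE 0.17, adjusted p = 0.00304) led. In NKT17 Pyhin1 (log2 fold change -1.63, SE 0.18, adjusted p = 2.19e-06) and Epsti1 (log2 fold change -1.27, SE 0.15, adjusted p = 3.75e-06) were lower and Samhd1, which breaks down nucleotides, was higher (log2 fold change 1.06, SE 0.15, adjusted p = 5.51e-05).

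Markers of other cells moved with genotype in some subsets. In NKT17, B cell markers (4 of 6 with a count) summed to 7.82 to 11.1 CPM in WT and 24.8 to 40.7 CPM in SKG, where the 1 that was tested, Cd79b, was called higher while Ms4a1 and Ebf1 were at 0. Markers of double-positive thymocytes summed to 5.27 to 12.5 and 14.3 to 47.5 CPM, with 1 of 2 tested (Cd8b1) higher and Rag1, Rag2 and Dntt at 0 in both genotypes. Markers of myeloid and dendritic cells (7 of 8 with a count) summed to 14.4 to 23.6 and 21.6 to 33.3 CPM, with 0 of 2 tested called in edgeR (0 at an unadjusted p under 0.05 and 0 in DESeq2) and Csf1r, Itgax, Itgam and Clec9a at 0 in both genotypes. Epithelial markers (5 of 6 with a count) summed to 9.04 to 18 and 3.49 to 7.88 CPM (1 of 2 tested, Epcam, lower), and 4 proliferation markers to 62.6 to 145 and 29.5 to 41.2 CPM (3 of 4 lower). The 6 NKT17 markers summed to 2382 to 2483 CPM in WT and 2389 to 2453 CPM in SKG (2 of 6 lower and 1 higher). Ccr6 rose from a mean of 12.0 CPM in WT NKT17 to 592 CPM in SKG NKT17. Il23r fell from 454 to 245 CPM and Il1r1 from 467 to 233 CPM, so the sum hides opposite changes. In NKT1, 4 NK cell markers summed to 196 to 359 CPM in WT and 86.4 to 131 CPM in SKG (1 of 3 tested, Ncr1, lower), and the 6 NKT1 markers to 4556 to 5106 and 3818 to 4200.2 CPM (0 of 6 called in edgeR, 2 lower at an unadjusted p under 0.05 and 0 in DESeq2). In NKT2, the 6 NKT2 markers summed to 2749 to 3219 CPM in WT and 1667 to 2329 CPM in SKG (Gata3 and Icos lower), and 5 immediate-early genes to 313 to 541 and 619.5 to 1353 CPM (0 of 4 tested called in edgeR, 1 higher at an unadjusted p under 0.05 and 1 in DESeq2). The part of these in the results above was not tested.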

How the data were processed

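Poly-A RNA of sorted thymic iNKT subsets was converted to full-length cDNA, tagmented with Tn5 and sequenced as short single-end reads without molecular identifiers, so intervals of spread do not part PCR copies from molecules. The authors deposited whole-number read counts per gene symbol without normalization. They removed tRNA, rRNA, adapter and spike-in reads, aligned with TopHat to mm9 and counted with htseq-count in union mode. The submitters' processing notes name Bowtie 1.0.0, TopHat 1.4.1 and HTSeq 0.7.1, and list builds other than mm9 too. The annotation and strand setting are not given in the sources used here. Columns were joined to samples by title, and 2 columns of no listed sample were not used.

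Counts were filtered with filterByExpr (11118 of 15582 genes), scaled by TMM (factors 0.928 to 1.07) and fitted in edgeR 4.0.16 (R 4.3.3, limma 3.58.1) with a robust quasi-likelihood model of 6 groups (12 residual degrees of freedom, biological coefficient of variation 21.1%). The two-sided tests gave 12 comparisons, of which 3 were between genotypes, 6 between subsets of 1 genotype and 3 between the SKG effects of 2 subsets. Tokens in the titles recur across groups, and deviations of same-token libraries correlated in all 3 pairs of WT NKT2 with WT NKT17 (r from 0.219 to 0.351), the groups for which the block is a pairing. The pipeline was tested on simulated data. No 2 libraries of a group agreed within sampling noise, and all 3 entered as replicates. Alternatives were DESeq2 1.42.0, RLE and upper-quartile scaling, no filter or a minimum mean of 50 counts, a threshold of 0.05 on the adjusted p, calls without the fold minimum, separate fits for the groups in a comparison, a block by title token, and each library left out. An SE is the absolute log2 fold change over the root of the F statistic. Gene positions and exon lengths are from GENCODE M1 (mm9), which gave 46 members 1 position, and promoter windows from RefSeq (GRCm38.p6).

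The members, lists and tests were chosen with earlier results of these data known, so they are not independent of them. Values in every library are given for members called between genotypes or in a difference of the SKG effect, and for the 3 largest called differences in each direction between WT subsets. Members called nowhere are counted with their level range. From other lists the 3 called genes of smallest adjusted p per comparison of genotypes are named, apart from 1 that is not reported here.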

Additional observations from a re-analysis of the deposited data

Results flagged for a closer look

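For 8 members the difference between SKG and WT itself differed between subsets, by the test of that difference in edgeR (values are differences of log2 fold changes). Between NKT2 and NKT1 it was 1.11 for Gbp6, 0.59 for Ifi35, 1.02 for Ifit1, 0.89 for Irf7, 0.69 for Irf9, -0.81 for Ly6e and -1.44 for Oas3, where a negative value means a greater reduction in SKG NKT2. Between NKT17 and NKT1 it was -2.12 for Ifit2, 0.81 for Irf7 and -0.69 for Ly6e. Between NKT17 and NKT2 it was -1.33 for Gbp6 and -2.15 for Ifit2. The contrasts share libraries, so a member named in 2 of them, as Gbp6, Ifit2, Irf7 and Ly6e are, is not 2 independent results. In these 3 contrasts 10.9%, 2.17% and 0% of the members were called higher, against 2.09%, 2.05% and 1.14% of all genes tested. Called lower were 4.35% of the members in each, against 1.78%, 2.12% and 1.05%. Between NKT2 and NKT1 the calls for Ifi35, Irf9, Gbp6 and Ifit1 were lost under 14, 12, 5 and 1 of 18 alternatives. The Irf7 call between NKT17 and NKT1 was lost under 1 of 18.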

How the results depend on the processing

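Of 216 values of counts and summed levels recomputed under an alternative, 202 stayed within 1.5 times the reported count, or within 1 SD of the reported level, and 14 moved further. In NKT2 the count of members that differed between genotypes was 8 when only the libraries compared were fitted and 9 with no fold minimum, against 5, and 3 to 5 without single libraries. In NKT17 it was 6 to 17 without single libraries, against 14. The count for the difference between NKT2 and NKT1 was 4 at an adjusted p under 0.05, against 7, and 3 to 7 without single libraries. That between NKT17 and NKT2 was 2 to 4 without single libraries, against 2. With upper-quartile scaling the summed level was 5631 CPM in SKG NKT1 and 6198 CPM in SKG NKT2, against 5739 and 6066 CPM. For single members, 737 of 834 recomputed values kept their call and 97 lost it with the direction kept. Across TMM, RLE, upper-quartile and DESeq2 scaling, 41 to 43 members were below 0 in NKT1, 35 to 38 in NKT2 and 44 to 45 in NKT17.

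Titles hold a token that recurs across groups. Deviations from the group means of libraries with the same token and genotype correlated above 0.1 in 12 of 18 pairs (r from -0.06 to 0.35), and in 0 of 18 pairs across genotypes (r from -0.15 to 0.09). It was taken to pair WT NKT2 with WT NKT17, where all 3 pairs were above 0.1, and no other groups, where at most 2 of 3 were. With it as a replicate block the members that differed between genotypes numbered 13 in NKT1 (1 higher, Oas2), 6 in NKT2 and 12 in NKT17. This block also joins WT and SKG libraries of a token, for which the deviations showed no pairing. The calls between genotypes that it adds or ends therefore rest on a pairing not seen in these data. Gbp2 and Igtp in NKT1 and Igtp, Irgm1, Usp18 and Xaf1 in NKT17 lost their calls, and Bst2 and Oas2 in NKT1, Ifi27l2a in NKT2 and Ifi44 and Irf9 in NKT17 gained one. The counts of the other 9 comparisons stayed within 1.5 times. Oasl2, with at most 13 counts in a library, could not be tested at this depth.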
